A study of Mus musculus with 24 samples.

Results

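The 10 genes described here mark the state of skeletal muscle. They comprise 4 myogenic regulatory factors (Myod1, Myog, Myf5 and Myf6), the satellite cell factor Pax7, the embryonic and perinatal myosin heavy chains Myh3 and Myh8, the acetylcholine receptor subunit Chrna1, and the muscle ubiquitin ligases Trim63 and Fbxo32. They were taken by name from the 55401 genes of the count table, through their Ensembl identifiers in GENCODE M21, and all 10 were found. RNA had been sequenced from 24 mouse tumors grown from TC2Ras cells, a prostate adenocarcinoma line, in male C57/BL6 mice aged 8 to 10 weeks. The question was whether the muscle RNA that some of these tumors carry resembled that of intact or of regenerating muscle.

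The tumors fell into 10 groups. In the subcutaneous (SC) model, 2 tumors came from mice given an empty vector (control) and 2 from mice given a vector for the cytokine interleukin-27 (IL-27). In the intratibial model, in which luciferase-expressing TC2Ras cells were placed in the tibia, mice received the empty vector or the IL-27 vector together with cabozantinib (cabo), a tyrosine kinase inhibitor given by mouth, or with its polyvinylpyrrolidone vehicle. Tumors were taken on day 14 (D14), 3 per group, or at the end of the study (EOS), 2 per group. The control group therefore carried a vector and, in the intratibial model, the vehicle as well. Every vector was injected into muscle and driven in with microbubbles and ultrasound, and in the intratibial mice the injected muscle was the tibialis anterior, which lies along the tibia. EOS tumors were taken when a mouse reached its humane endpoint. Per the paper, cabo or vehicle was given daily for the 14 days after implantation, so EOS tumors were taken after dosing had ended. SC tumors were taken a week after implantation. An intratibial tumor is named by its mouse. The numbers of the SC tumors do not say whether these came from separate mice, so the p-values for SC tumors may measure technical spread.

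Skeletal muscle is built by a cascade of transcription factors. Pax7 keeps satellite cells, the stem cells of muscle, in reserve. Myf5 and Myod1 commit their progeny to muscle, and Myog switches on the final differentiation and fusion into fibers. Myf6 is the member of this family that adult fibers keep at the highest level. Newly formed fibers first make Myh3 and Myh8, and replace them with the adult chains of Myh7, Myh2, Myh1 and Myh4 as they mature. Chrna1 belongs to the receptor through which nerve drives muscle, and its RNA rises along the fiber when the nerve is lost. Trim63 (MuRF1) and Fbxo32 (atrogin-1) tag muscle proteins for degradation and rise in wasting muscle, but resting adult muscle makes both.

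All positions are on GRCm38. Myf5 (chromosome 10, 107482908 to 107486134, minus strand) and Myf6 (chromosome 10, 107492853 to 107494737, minus strand) are neighbors. Myh3 (chromosome 11, 67078300 to 67102291, plus strand) and Myh8 (chromosome 11, 67277124 to 67308634, plus strand) both belong to the cluster of skeletal myosin genes. Myod1 lies on chromosome 7 (46376474 to 46379099, plus strand), Myog on chromosome 1 (134289989 to 134292548, plus strand) and Pax7 on chromosome 4 (139737062 to 139833528, minus strand). Chrna1 lies on chromosome 2 (73563215 to 73580338, minus strand), Trim63 on chromosome 4 (134315120 to 134329629, plus strand) and Fbxo32 on chromosome 15 (58175879 to 58214932, minus strand). Each is annotated as protein coding, and counts cover the whole gene. The myosin genes resemble each other in sequence, so reads shared between them may have been assigned to the wrong copy.

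Each library held between 63729005 and 83782258 counts on genes. Levels are given as CPM, the count relative to the library total, scaled by the TMM method of edgeR. Between 30.4% and 35.5% of low values were multiples of 4, so a value of 4 may stand for 1 sequenced fragment, and the counting error of low genes is larger than the counts imply. The limit that a count of 0 allows was therefore taken as 3 fragments of 4 counts, or 12 counts, which is 0.143 to 0.224 CPM per tumor. The D14 IL-27+cabo tumor of mouse 20 stood apart, with the smallest library and only 21269 genes detected, and results that rest on it are given without it too. The labelled cell type was carried by the epithelial keratins Krt8 and Krt18, which had counts in all 24 tumors, whereas the prostate markers Pbsn and Hoxb13 were at 0 in all of them.

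The amount of mature muscle RNA was summarized as the mean log2 CPM of 24 genes of adult fibers, among them Acta1, the skeletal muscle actin, Ckm, the muscle creatine kinase, and Myh4, a fast myosin. The D14 cabo tumors scored 5.14 to 5.45 and the D14 IL-27+cabo tumors 5.24 to 6.89, above the D14 control tumors at -1.42, 0.17 and 2.33. Of the D14 IL-27 tumors, only that of mouse 8 was high, at 5.88, and the other two scored 0.29 and 1.32. At EOS the cabo tumors scored 1.93 and 4.55, the IL-27+cabo tumors 0.99 and 2.59, and the 4 tumors without cabo between -1.76 and -0.53. The SC IL-27 tumors scored 3.62 and 4.87 and the SC control tumors -2.22 and -0.68. Of 6 heart muscle markers, Myl7 was at 0 in 22 of 24 tumors, Nppa in 20 and Nppb in 17, and Myh6 had at most 20 counts. Tnni3 had counts in all tumors but 1, up to 1.25 CPM, and Ryr2 had counts in all 24, up to 1.93 CPM. In bulk tumors, more muscle fibers and more RNA per fiber cannot be told apart.

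**Figure D1:**
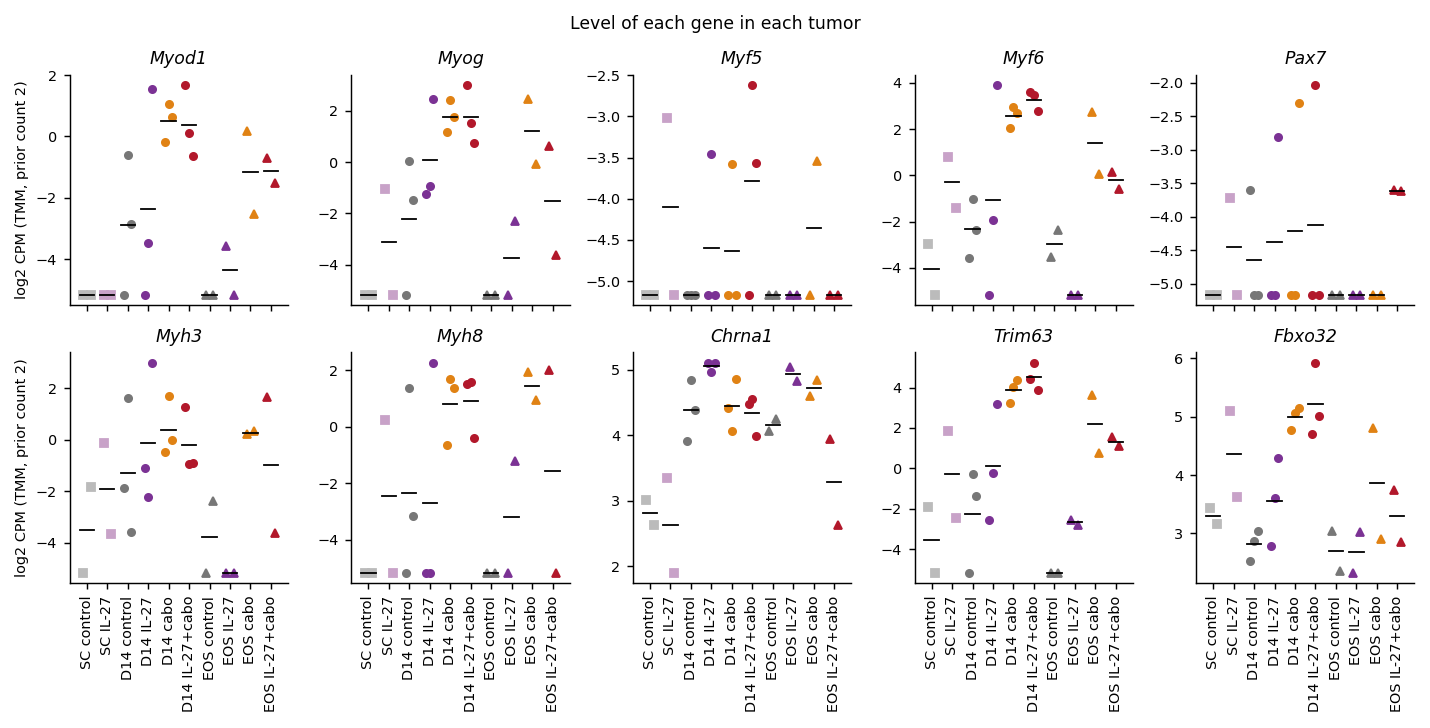
Each point is 1 tumor and each panel 1 gene. The vertical axis is log2 CPM with a prior count of 2, on a scale of its own in each panel, so that a count of 0 lies near -5.17, and the bar is the mean of the group. Squares are SC, circles D14 and triangles EOS tumors. In the panels of Myog, Myf6, Trim63 and Fbxo32 the D14 cabo and IL-27+cabo tumors lie above the D14 control tumors, and in that of Myod1 the lowest IL-27+cabo tumor (0.619 CPM) lies level with the highest control tumor (0.628 CPM). Chrna1 shows no such step, and Myf5 and Pax7 have counts in few tumors.

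The ubiquitin ligases and Myf6 were higher in D14 tumors of mice given cabo. Trim63 rose from 0, 0.799 and 0.357 CPM in the control tumors of mice 3, 5 and 7 to 9.37, 16.5 and 20.8 CPM in the cabo tumors of mice 21, 25 and 27. Fbxo32 rose from 5.76, 7.28 and 8.23 CPM to 27.2, 33.3 and 35.5 CPM. Myf6 rose from 0.0548, 0.458 and 0.165 CPM to 4.17, 7.78 and 6.52 CPM. None of these values overlapped between the groups, but how many of all genes separate in this way was not counted, here or below. The log2 fold changes were 5.32 (SE 0.88, adjusted p = 0.0315) for Trim63, 2.18 (SE 0.17, adjusted p = 0.00314) for Fbxo32 and 4.75 (SE 0.64, adjusted p = 0.0156) for Myf6, in edgeR's quasi-likelihood test with Benjamini-Hochberg adjustment over all genes tested. Thus 3 of the 8 members tested were called, where 1.89% of all 18627 genes were called. Unadjusted, 5 of the 8 had p under 0.05, as had 3523 of all genes tested. Myf5 and Pax7 did not pass the filter on low counts. Without the control tumor of mouse 7 or the cabo tumor of mouse 25 or 27, edgeR adjusted p was 0.0738, 0.0654 and 0.0742 for Myf6 and 0.117, 0.111 and 0.133 for Trim63. That of Fbxo32 was at most 0.0211 whichever tumor was left out. Without the cabo tumor of mouse 21, Trim63 had adjusted p = 0.079. With all 24 tumors in a single fit none of the 3 was called.

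The 2 regulators of commitment and differentiation were also present at higher levels, but did not pass the test. Myog was at 0, 1.01 and 0.33 CPM in the D14 control tumors and at 2.21, 5.27 and 3.33 CPM in the cabo tumors, a log2 difference of 3.00 (SE 1.02, edgeR adjusted p = 0.179). Myod1 was at 0, 0.628 and 0.11 CPM against 0.857, 2.04 and 1.51 CPM, a log2 difference of 2.56 (SE 1.05, edgeR adjusted p = 0.243). The groups did not overlap for either gene, but the control tumors were themselves far apart.

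The markers of new or denervated fibers did not pass the test. Myh3 was at 0.247, 3.05 and 0.0549 CPM in the control tumors and 0.685, 3.21 and 0.958 CPM in the cabo tumors, with a log2 difference of 0.53 (SE 1.18). Myh8 was at 0, 2.51 and 0.0824 CPM against 0.614, 3.18 and 2.56 CPM, with a log2 difference of 1.29 (SE 1.39). In both, the control tumor of mouse 5, which had the highest mature muscle score of its group, lay within the range of the cabo tumors. Chrna1 was at 15.1, 28.7 and 20.9 CPM against 21.4, 16.8 and 29.1 CPM, with a log2 difference of 0.06 (SE 0.27). The edgeR adjusted p-values of these genes were 0.85, 0.666 and 0.929. When each tumor was left out in turn, the difference of Myh3 ranged from -0.44 to 3.41, that of Chrna1 from -0.18 to 0.32 and that of Myh8 from 0.70 to 5.62, the last without the control tumor of mouse 5 (edgeR adjusted p = 0.0645).

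**Figure D2:**
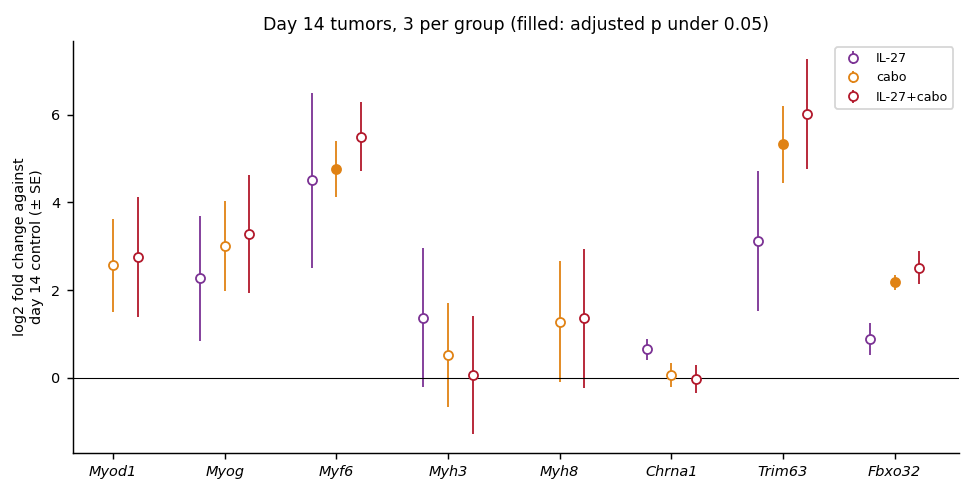
Log2 fold changes of the 8 members tested, against the D14 control tumors, with their standard errors, 3 tumors per group. Filled points passed an adjusted p of 0.05 in edgeR. They are Myf6, Trim63 and Fbxo32 in the cabo comparison, and Myh3, Myh8 and Chrna1 lie closest to 0 among the cabo and IL-27+cabo points. All 3 comparisons share the control tumors.

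The combination gave levels of the same order, with more spread. In the D14 IL-27+cabo tumors of mice 20, 22 and 24, Trim63 was at 21.3, 37.4 and 14.7 CPM, Fbxo32 at 26.1, 60.7 and 32.1 CPM and Myf6 at 12.2, 11.01 and 6.84 CPM. All of these lay above the control tumors, which are the same 3 as for cabo. The log2 differences were 6.01 (SE 1.25, adjusted p = 0.223) for Trim63, 2.51 (SE 0.37, adjusted p = 0.101) for Fbxo32 and 5.49 (SE 0.79, adjusted p = 0.0887) for Myf6 by edgeR, so that 0 of 8 members were called, where 0.064% of 18750 genes were called. Unadjusted, 4 of the 8 had p under 0.05, as had 1163 of all genes tested, and DESeq2 called 3. Without the tumor of mouse 20, edgeR called 175 of all genes, among them Fbxo32 (log2 difference 2.71, SE 0.29, adjusted p = 0.017) and Myf6 (5.29, SE 0.69, adjusted p = 0.0287). Myh3, at 2.37, 0.499 and 0.507 CPM, overlapped the control range, and so did Chrna1, at 22.3, 23.6 and 15.8 CPM. Summed markers of other cells differed between these groups without overlap. They were at 127.6 to 246.9 CPM against 93.2 to 116.7 CPM in control tumors for tumor epithelium, 71.0 to 122.3 against 169.9 to 273.7 for endothelium, 438.3 to 1762 against 157.9 to 282.2 for smooth muscle (Des included) and 39.1 to 128.7 against 11.1 to 33.1 for tendon and synovium. EdgeR called 0 genes of these lists, and their part in the values of the members was not tested.

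IL-27 alone raised no member past the test, and for Myf6, Trim63 and Myog a single tumor held most of the RNA. In the tumors of mice 4, 6 and 8, Myf6 was at 0, 0.236 and 15.01 CPM, Trim63 at 0.141, 0.833 and 9.03 CPM and Myog at 0.394, 0.503 and 5.46 CPM. The tumor of mouse 8, with its high mature muscle score, had the highest Myf6 of all 24 tumors and the highest Myh3, 7.94 CPM, and Myh8, 4.74 CPM. In the other two, Myog and Myf6 did not exceed the highest control tumor, and Trim63 exceeded it slightly in mouse 6. By edgeR the log2 differences from control were 4.50 (SE 2.00) for Myf6, 3.13 (SE 1.59) for Trim63 and 0.88 (SE 0.37) for Fbxo32, each with an adjusted p of 1.00, and without mouse 8 that of Myf6 was -0.92. EdgeR called 0 of the 6 members tested and 0% of all 18519 genes, and DESeq2 called 0 members. Unadjusted, 2 members had p under 0.05, Chrna1 and Fbxo32, as had 511 of all genes tested. Chrna1 was at 34.4, 31.3 and 34.4 CPM, above all 3 control tumors. The interaction of IL-27 with cabo on D14 called 0 of 8 members and 0% of all genes, with 0 unadjusted p-values under 0.05 among the members and 0 calls by DESeq2.

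At EOS, several members were not detected in the control tumors. Myod1, Myog, Myh8 and Trim63 had 0 counts in both EOS control tumors. In the EOS cabo tumors of mice 19 and 23, Trim63 was at 12.2 and 1.65 CPM, Myog at 5.52 and 0.927 CPM, Myh8 at 3.81 and 1.90 CPM and Myod1 at 1.11 and 0.145 CPM. Set against 12 counts per control library, the group means were at least 40.7-fold higher for Trim63, 18.96-fold for Myog and 16.8-fold for Myh8. Mouse 19, with the higher mature muscle score of 4.55, had the higher level of each of these 4 genes. The folds of the group means thus rest more on mouse 19 than on mouse 23. Fbxo32 was at 28.1 CPM in mouse 19 and at 7.5 CPM in mouse 23, the latter within the control values of 8.24 and 5.10 CPM.

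With 2 tumors per group, no member was called at EOS. EdgeR called 0 of 8 members in each of the cabo, IL-27+cabo and IL-27 comparisons with control, where 0% of 20026 genes were called in each. Unadjusted, 5, 5 and 2 members had p under 0.05, beside 1783, 2835 and 651 of all 20026 genes. DESeq2 called 3 members for cabo (Myod1, Myf6 and Trim63), 1 for IL-27+cabo (Trim63) and 0 for IL-27. In the EOS IL-27+cabo tumors of mice 16 and 28, Trim63 was at 2.87 and 2.12 CPM, at least 14.7-fold above 12 counts per control library, and Myog at 1.52 and 0.0533 CPM. The EOS IL-27 tumors held at most 12 counts of Myog and 10 of Trim63. Without the EOS cabo tumor of mouse 23, edgeR called 1 member, Trim63, beside 10 of all genes, with the spread taken from the other EOS groups.

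Between D14 and EOS no member passed the test. In the cabo group, the EOS tumor of mouse 19 held 12.2 CPM of Trim63, within the D14 range of 9.37 to 20.8 CPM, and that of mouse 23 held 1.65 CPM, below it. EdgeR called 0 of 8 members, where 2.09% of 19144 genes were called, with 0 unadjusted p-values under 0.05 among the members and 0 calls by DESeq2. Without mouse 19, it called 2 members, Trim63 and Fbxo32, beside 439 of all genes, with mouse 23 as the only EOS tumor and the spread taken from the D14 tumors. In the IL-27+cabo group, both EOS tumors lay below all 3 D14 tumors for Trim63, Fbxo32 and Myf6, the last at 1.10 and 0.64 CPM. The developmental myosins went the other way in mouse 16, with Myh3 at 3.13 CPM and Myh8 at 4.02 CPM, above all 3 D14 tumors. There edgeR called 0 of 8 members and 0% of 19365 genes, 3 members and 742 of all genes had an unadjusted p under 0.05, and DESeq2 called those 3 members (Myf6, Trim63 and Fbxo32).

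Control and IL-27 tumors gave 0 called members between the time points. In the control group 6 members were tested where 0.104% of 19292 genes were called, with 2 members and 2531 of all genes at an unadjusted p under 0.05. In the IL-27 group 7 were tested where 0% of 19078 genes were called, with 4 members and 963 of all genes at an unadjusted p under 0.05, and DESeq2 called 0 members in both. The change with time was then set against that of the control tumors. For IL-27, cabo and IL-27+cabo in turn, edgeR called 0 of 9 members each time, where 0%, 0.0788% and 0.0788% of 21563 genes were called, with 1, 0 and 1 members and 417, 887 and 1970 of all genes at an unadjusted p under 0.05, and DESeq2 called 1 member each time, Myf6, Myh8 and Myh8.

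In the SC model, muscle RNA was present in both IL-27 tumors, and the members were less uniform. Trim63 was at 3.58 and 0.155 CPM in the IL-27 tumors and at 0.235 and 0 CPM in the control tumors. Myf6 was at 1.73 and 0.348 CPM against 0.0991 and 0 CPM, and Fbxo32 at 34.0 and 12.3 CPM against 10.8 and 8.93 CPM. Trim63 overlapped between the groups, and Myf6 and Fbxo32 did not. The log2 differences by edgeR were 4.03 (SE 1.84, adjusted p = 0.166), 4.38 (SE 1.57, adjusted p = 0.0948) and 1.28 (SE 0.55, adjusted p = 0.147). Of 5 members tested 0 were called, where 20% of 19360 genes were called, and 1 had an unadjusted p under 0.05, as had 6856 of all genes tested. DESeq2 called these 3. When each SC tumor was left out in turn, the log2 difference ranged from 0.35 to 10.2 for Trim63, 2.73 to 9.37 for Myf6 and 0.28 to 1.85 for Fbxo32. EdgeR called 4 members, beside 2842 of all genes, without IL-27 tumor 2, and 0 without any other. A group left with a single tumor is assumed in such a fit to vary like the other group. Markers of other cells moved with the same contrast. Of 6 marrow myeloid genes, 5 were called higher, Mpo, Ngp, Ltf, S100a8 and S100a9, with a summed level of 37.0 to 37.5 CPM in the IL-27 tumors and 0.867 to 1.97 CPM in the control tumors. Krt8 was called lower (log2 fold change -3.81, SE 0.69, edgeR adjusted p = 0.00983). So were Tie1 of the endothelial list (-3.16, SE 0.47, edgeR adjusted p = 0.00475) and Scx of tendon and synovium (-5.04, SE 0.84, edgeR adjusted p = 0.0069). Prx of the Schwann cell list was also lower (-2.74, SE 0.47, edgeR adjusted p = 0.00762), and no other gene of these last lists was called. Of 6 smooth muscle genes, Smtn was called lower (log2 fold change -4.57, SE 0.36, edgeR adjusted p = 0.00138), Des, which skeletal fibers also make, was called higher (2.26, SE 0.59, edgeR adjusted p = 0.0366), and the other 4 were not called. Their part in the values of the members was not tested. Myod1 had 0 counts in all 4 SC tumors. Relative to Acta1 per length, the limit of 12 counts of Myod1 is 0.213% and 0.232% in the IL-27 tumors, within the 0.1% to 0.347% of the D14 cabo and IL-27+cabo tumors, so a lower share was not detectable at this depth.

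Myf5 and Pax7, the markers of the earliest steps, were barely detected anywhere. Myf5 had 0 counts in 18 of 24 tumors and at most 10 counts, in the D14 IL-27+cabo tumor of mouse 22. Pax7 had 0 counts in 17 tumors and at most 16 counts, in the same tumor, or 0.216 CPM. At this depth neither passed the filter on low counts in a pairwise comparison of groups. Pax7 passed it in the fits over all intratibial tumors, where it was not called. The counts do not separate the muscle-rich from the muscle-poor tumors. Of 10 other genes of satellite cells, 9 were tested in the D14 cabo comparison and 0 were called by edgeR. Many of these genes are also used by other cell types.

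Across the 20 intratibial tumors, 7 of the 8 members with counts in at least 10 tumors followed the mature muscle score. Pearson's r with the score was 0.96 for Trim63, 0.95 for Myf6, 0.93 for Myod1, 0.93 for Myog and 0.91 for Fbxo32, each with a permutation p of 1e-05, the smallest that 100000 resamples can give. It was 0.82 for Myh8 (permutation p = 7e-05) and 0.75 for Myh3 (permutation p = 0.00016). Chrna1 did not follow the score, with r = 0.10 (permutation p = 0.7). Spearman's rho was 0.94, 0.93, 0.93, 0.94, 0.81, 0.82, 0.77 and 0.15 in the same order of genes, with permutation p of at most 0.0001 for all but Chrna1, at 0.52. Correlations were tested for these 8 members only, so no share of all genes stands beside this count. The slope fit below gives such a share by another test. Leaving out the 2 tumors farthest from the median score, those of mice 20 and 22, gave r of 0.95, 0.94, 0.93, 0.93, 0.91, 0.80, 0.78 and 0.09 in that order.

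**Figure D3:**
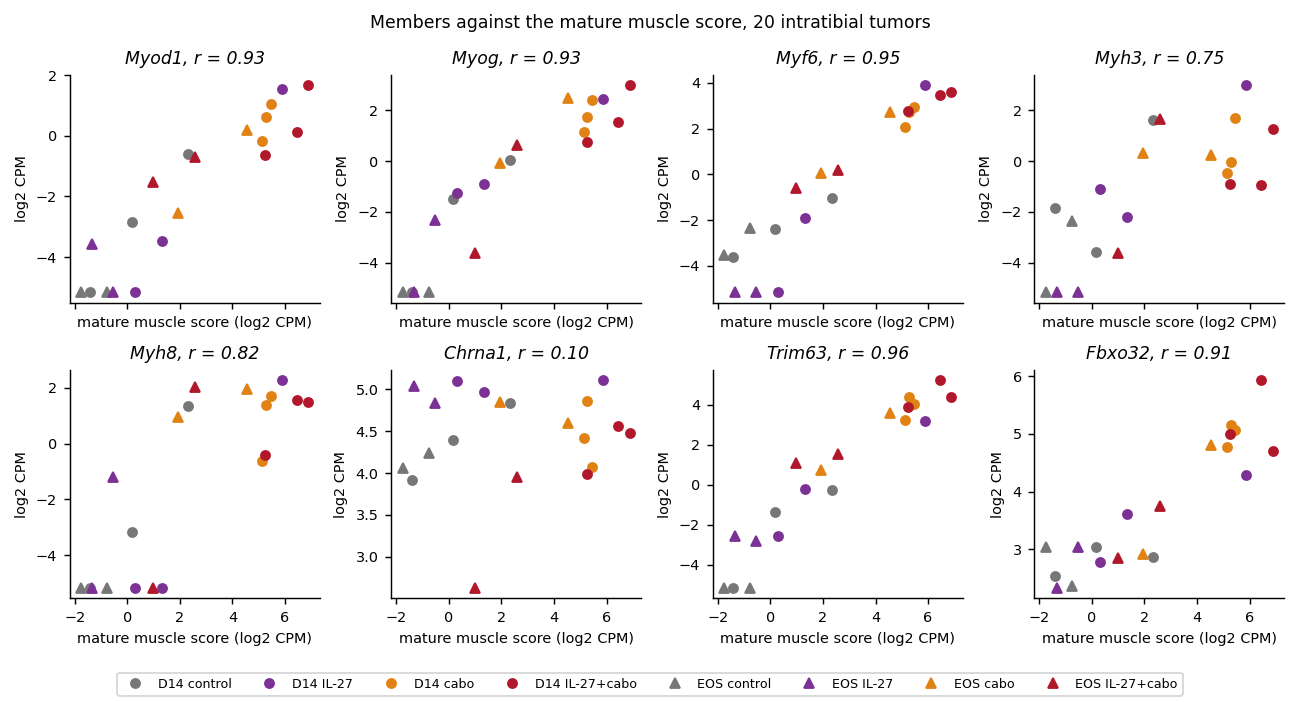
Each point is 1 intratibial tumor. The horizontal axis is the mean log2 CPM of 24 genes of mature muscle and the vertical axis the log2 CPM of the gene named above the panel. Circles are D14 and triangles EOS tumors, and values near -5.17 are counts of 0. In 7 panels the points climb with the score, with r from 0.75 for Myh3 to 0.96 for Trim63, and in the panel of Chrna1 they do not, with r of 0.10.

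The correlations were also computed within each time point. Within D14 (12 tumors) and within EOS (8 tumors), r was 0.98 and 0.93 for Trim63, 0.96 and 0.92 for Myf6, 0.93 and 0.94 for Myog, 0.93 and 0.91 for Myod1, and 0.90 and 0.83 for Fbxo32. For the developmental myosins it was 0.87 and 0.83 (Myh8) and 0.63 and 0.85 (Myh3), and for Chrna1 0.01 and -0.07. The widest gap in the score lay between 2.59 and 4.55. Among the 12 tumors below it r was 0.90 for Myog, 0.89 for Trim63, 0.83 for Myod1, 0.80 for Myh3, 0.77 for Myf6, 0.72 for Myh8, 0.60 for Fbxo32 and 0.02 for Chrna1. Among the 8 tumors above it, r ranged from 0.13 for Chrna1 and 0.18 for Fbxo32 to 0.73 for Myf6, and was lower than below the gap for each member but Chrna1. The upper tumors span a narrow range of the score.

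The steepness of the relation differed between members. A slope fitted by edgeR to the counts of all 20 intratibial tumors gives the change in log2 level per unit of score, so that a gene with a slope of 1 changes in step with the mean of the mature muscle genes. Of 24 mature muscle genes, 23 had a positive slope at an adjusted p under 0.05. The median over all 24 was 1.12 and the range 0.10 to 1.39, which also holds the 7 members called. Not all 24 are low in tumors with little muscle RNA, since Eno3 had 1429 counts or more in every tumor. Trim63 had a slope of 1.08 (SE 0.10, adjusted p = 5.4e-08) and Myf6 of 1.05 (SE 0.09, adjusted p = 1.7e-08), the nearest to that median. Myog at 0.88 (SE 0.11, adjusted p = 1.0e-05) and Myod1 at 0.86 (SE 0.11, adjusted p = 1.3e-05) had lower estimates. Myh8 at 0.79 (SE 0.21, adjusted p = 0.0284) and Myh3 at 0.64 (SE 0.16, adjusted p = 0.0276) had the least certain slopes. Fbxo32 at 0.35 (SE 0.03, adjusted p = 1.7e-07) had a shallow and tightly bounded one.

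In this fit 7 of the 9 members tested were called, where 4.58% of 21563 genes were called. The slope of Chrna1 was 0.01 (SE 0.04, adjusted p = 0.891) and that of Pax7 0.38 (SE 0.18, adjusted p = 0.229). Fbxo32 differed from Trim63 in its floor. It had 351 counts or more in every intratibial tumor, also in those where Trim63 had 0 counts, and its range was 5.0 to 60.7 CPM. Chrna1 had 461 counts or more in every intratibial tumor. Both were thus measured in tumors with little mature muscle RNA, and the cells they came from there were not identified. With the 8 groups as terms in the fit, which leaves the differences within groups, Trim63, Myf6, Myog, Myod1 and Myh8 kept an adjusted p under 0.05, and Fbxo32 (adjusted p = 0.73) and Myh3 (adjusted p = 0.209) did not, where 0.557% of all genes were called. With the time point as a term, Myh3 (adjusted p = 0.0892) was the only one of the 7 no longer called, where 1.91% of all genes were called. Within D14 alone, Myod1, Myog, Myf6, Trim63 and Fbxo32 were called (5 of 8 members tested, beside 1.51% of all genes) and Myh3 and Myh8 were not. Within EOS alone, Myog, Myf6 and Trim63 were called (3 of 8, beside 0.399% of all genes) and Myod1, Myh3, Myh8 and Fbxo32 were not. Without the tumor of mouse 20 the 7 slopes lay between 0.37 and 1.10, and 7 members and 3.09% of all genes were called.

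**Figure D4:**
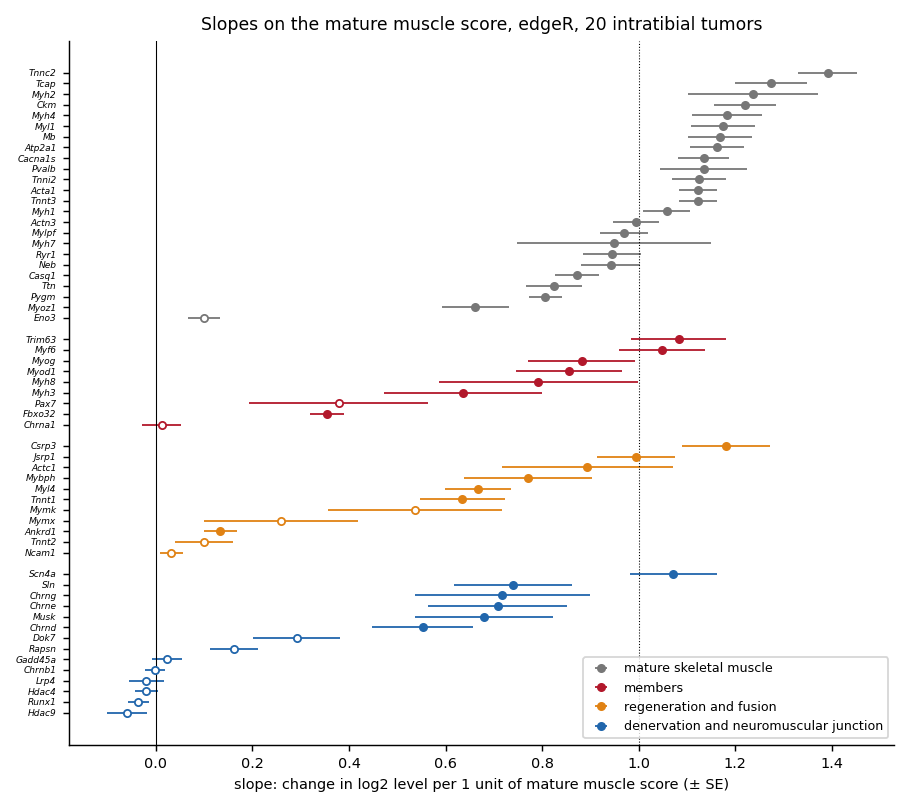
Slopes of genes on the mature muscle score, with standard errors, from edgeR over 20 intratibial tumors. Filled points passed an adjusted p of 0.05 over all genes, and the dotted line marks a slope of 1. Trim63 (1.08) and Myf6 (1.05) lie near the median of the mature muscle genes, 1.12, the developmental myosins Myh8 (0.79) and Myh3 (0.64) lie to the left of that median, and Chrna1 lies at 0.01. The mature genes themselves span 0.10 to 1.39. Of the 15 genes of denervation and the junction, 14 are drawn. The mature genes define the score, so their own slopes are no test.

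Promoter sequences of RefSeq (GRCm38.p6) matched 7 of the 10 members, and none was found for Myod1, Myf6 or Fbxo32. The 250 bases before the start are shown 5′ to 3′ for 4 members that differ in how they followed the score, namely Trim63 and Myog, Myh3, and Chrna1, which did not follow it. Capitals mark the E-box letters CANNTG, the core that myogenic factors bind, which include CAGCTG, and in Trim63 the letters GTAAACA of forkhead (FOXO) factors, there on the opposite strand. Both strands were searched. The RefSeq start of Myog lies inside the gene as placed above, and so do the last bases of its window, with CAGTTG. The whole window of Pax7, not shown, also lies inside its gene as placed above.
Trim63 (chr4:134314870-134315119, plus strand): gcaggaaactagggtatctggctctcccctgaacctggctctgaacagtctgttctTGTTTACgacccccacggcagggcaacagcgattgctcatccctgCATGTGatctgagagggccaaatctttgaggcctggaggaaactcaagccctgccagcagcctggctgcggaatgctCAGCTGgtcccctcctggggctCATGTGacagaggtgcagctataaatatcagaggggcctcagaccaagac
Myog (chr1:134289754-134290003, plus strand): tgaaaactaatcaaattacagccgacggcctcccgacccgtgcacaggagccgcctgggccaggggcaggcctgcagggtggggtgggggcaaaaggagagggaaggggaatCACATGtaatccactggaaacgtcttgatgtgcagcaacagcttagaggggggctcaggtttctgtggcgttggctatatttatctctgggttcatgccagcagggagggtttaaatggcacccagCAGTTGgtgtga
Myh3 (chr11:67078050-67078299, plus strand): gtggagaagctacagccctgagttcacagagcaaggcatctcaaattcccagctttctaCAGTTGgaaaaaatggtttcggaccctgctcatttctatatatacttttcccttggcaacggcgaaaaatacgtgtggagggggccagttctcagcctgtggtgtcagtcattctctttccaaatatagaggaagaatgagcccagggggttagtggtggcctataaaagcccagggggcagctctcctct
Chrna1 (chr2:73580339-73580588, minus strand): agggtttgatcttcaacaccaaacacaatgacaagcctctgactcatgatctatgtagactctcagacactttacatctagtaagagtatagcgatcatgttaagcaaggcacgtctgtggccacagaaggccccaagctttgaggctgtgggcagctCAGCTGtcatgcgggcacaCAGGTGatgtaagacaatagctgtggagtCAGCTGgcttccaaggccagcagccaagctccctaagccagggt

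Trim63 and Chrna1 each held 3 E-boxes, Myog held 2, Myh3 and Myh8 held 1 each, and Myf5 and Pax7 held 0 in these windows. CANNTG occurred in 66.2% of all 32536 windows of this length, with a median of 1 per window. CAGCTG occurred in 13.1% of windows, and among the members in Chrna1 at 2 places, 92 and 44 bases before the start, and in Trim63 at 1 place, 72 bases before it. GTAAACA occurred in 3.17% of windows, and among the members in Trim63 alone, 194 bases before the start. The E-box letters were thus found both in members that followed the mature muscle score and in Chrna1, which did not.

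The genes most like each member over the 20 intratibial tumors were mostly genes of mature fibers. They were the 3 with the highest Pearson's r of log2 CPM among the 13891 or 13892 genes with a mean log2 CPM above 0 (the member itself left out). For Trim63 they were Myh4, Myot and Acta1 (r = 0.98, 0.98 and 0.97), for Myf6 Pdlim3, Cacng1 and Myh4 (0.96, 0.96 and 0.95) and for Myog Myom2, Myl1 and Myh2 (0.96, 0.95 and 0.95). For Myod1 they were Trdn, Mylpf and Actn3 (0.95 each), and for Fbxo32 Nrap, Ttn and Ankrd23 (0.95, 0.94 and 0.94). The developmental myosins had weaker neighbors, Myl1, Mb and Gprc5c for Myh3 (0.83, 0.82 and 0.82) and Actn3, Trim72 and Casq1 for Myh8 (0.86, 0.85 and 0.85). Chrna1 stood apart, with Inava, Pcdhb17 and Tec (0.85, 0.80 and 0.80). The tumors share the score as a common source of variation, so these values are a description.

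The share of developmental myosin addressed the age of the fibers more directly. It is the RNA of Myh3 and Myh8 as a percentage of that of Myh1, Myh2, Myh3, Myh4, Myh7 and Myh8, each per kb of the principal transcript. In the D14 cabo tumors of mice 21, 25 and 27 the share was 0.324%, 0.989% and 0.478%, of 27939, 46258 and 49933 myosin counts. In the D14 IL-27+cabo tumors of mice 20, 22 and 24 it was 0.811%, 0.215% and 0.219%. In the D14 control tumors of mice 3, 5 and 7 it was 9.73%, 13.9% and 1.63%, but of 186, 3042 and 608 myosin counts. All 6 tumors of mice given cabo lay below the 3 control tumors.

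The difference in mean share was -7.84 percentage points for cabo (0.597% ± 0.348 against 8.43% ± 6.26, SD, n = 3 each, exact two-sided permutation p = 0.1) and -8.02 for IL-27+cabo (0.415% ± 0.343, exact two-sided permutation p = 0.1). With 3 tumors per group 0.1 is the smallest p that the test allows, and over all 11 comparisons of this share the adjusted p was 0.55 in both exact tests. In the SC IL-27 tumors, which were also rich in muscle RNA, the share was 0.49% and 0.0422%. Adult chains thus made up nearly all skeletal myosin RNA in the muscle-rich D14 and SC tumors. The CPM of Myh3 and Myh8 themselves, given above, overlapped between control and cabo tumors, while Myh4, the fast adult chain, was higher with cabo.

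The remaining tumors did not follow a single pattern. The share was 3.98%, 0.94% and 2.31% in the D14 IL-27 tumors of mice 4, 6 and 8, the last of 38082 myosin counts. Mouse 8 thus had a larger share than the 6 D14 tumors of mice given cabo, at a mature muscle score like theirs. At EOS, the cabo tumors of mice 19 and 23 had 1.61% and 8.75%, and the IL-27+cabo tumors of mice 16 and 28 had 9.14% and 0.21%. Of 2446 myosin counts in mouse 23, 8.83% were developmental (95% Wilson interval 7.77% to 10.0%), and of 5727 in mouse 16, 9.22% were (8.50% to 10.0%). These intervals cover counting error only, and would be wider if 4 counts stood for 1 fragment. The EOS control tumors had 0% and 4.06%, of 143 and 297 myosin counts, the EOS IL-27 tumors 0% and 6.25%, of 179 and 442, and the SC control tumors 0% and 61.2%, of 357 and 31. Counts this low, like the 186 of the D14 control tumor of mouse 3 (95% Wilson interval of its count share 6.21% to 14.8%), leave each share uncertain. The EOS cabo tumors lay above all 3 D14 cabo tumors, with an exact two-sided permutation p of 0.2, the smallest that 2 against 3 tumors allow. The comparisons that involve EOS or SC tumors therefore could not reach a p under 0.05 and say nothing about whether these shares differ.

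**Figure D5:**
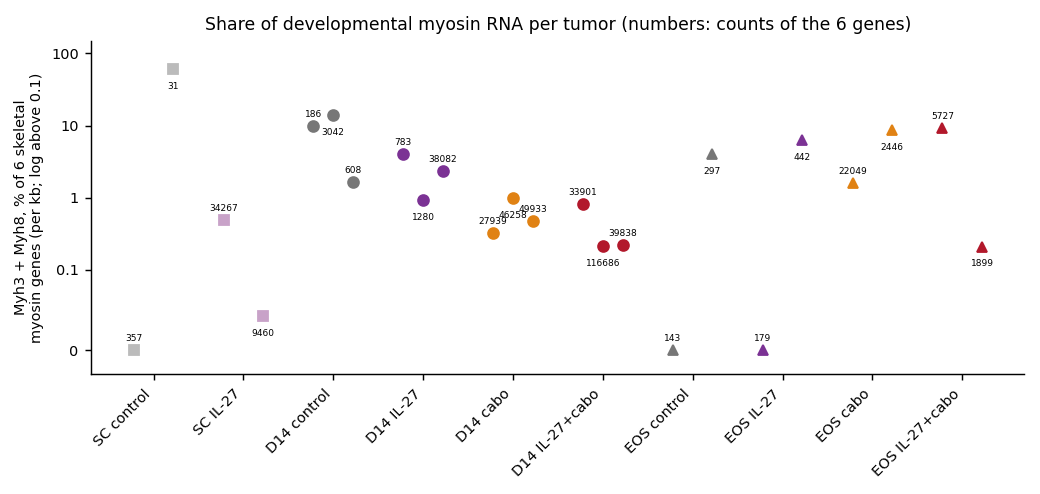
The share of Myh3 and Myh8 in the RNA of 6 skeletal myosin genes, per kb, with 1 point per tumor. The axis is linear from 0 to 0.1 and logarithmic above, and the number at each point is the count of the 6 genes. The D14 cabo and IL-27+cabo tumors, at 0.215% to 0.989%, lie below the D14 control tumors, at 1.63% to 13.9%. The control points rest on 186 to 3042 counts, and the point near 60 on 31 counts.

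The receptor subunits gave a different picture from the myosins. Chrng encodes the fetal gamma subunit, which adult innervated fibers replace with the epsilon subunit of Chrne. In the 12 tumors with at least 10 counts of both together, Chrng made up 50.7% to 100% of their RNA per kb, with a median of 87.5%. In the D14 cabo tumors of mice 21, 25 and 27 its share was 88.5%, 78.0% and 61.5%, of 94, 68 and 39 counts of Chrng. In the IL-27+cabo tumors of mice 20 and 22 it was 94.9% and 50.7%, and that of mouse 24 had 0 counts of Chrng and 7 of Chrne. Counts of Chrne were at most 25 in any tumor. The 2 genes had like slopes on the mature muscle score, 0.72 (SE 0.18, edgeR adjusted p = 0.0251) for Chrng and 0.71 (SE 0.14, edgeR adjusted p = 0.00418) for Chrne. These shares rest on few counts and are given without a test.

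Levels set against Acta1 show the composition of the muscle RNA itself. They were computed per kb in the 15 tumors with at least 1000 counts of Acta1, a measure chosen after the values were seen. In the 6 D14 tumors of mice given cabo, Trim63 was at 1.42% to 3.99% of Acta1, Myf6 at 1.21% to 1.95%, Myog at 0.341% to 1.11% and Myod1 at 0.1% to 0.347%. Myh3 was at 0.0147% to 0.168% and Myh8 at 0.0418% to 0.164%. Per kb, then, Trim63 and Myf6 stood above Myog and Myod1, and the developmental myosins stood lowest, in these 6 tumors. Of the 9 other tumors, those of mice 8 and 28 showed this order. By their measured values 7 did not, because Myog exceeded Myf6 or Trim63, because Myh3 or Myh8 exceeded Myod1, or both. In SC IL-27 tumor 2 this rests on 4 counts of Myh3, 0.0239% of Acta1, against 0 of Myod1. The limit for Myod1 there is 0.232%, so the order of that tumor is not settled.

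Some other tumors held more of the markers of new fibers relative to Acta1. In the D14 control tumor of mouse 5, Myog was at 2.15% of Acta1, Myod1 at 1.08%, Myh3 at 1.61% and Myh8 at 1.30%, all above the 6 D14 tumors of mice given cabo, whereas Trim63, at 1.35%, lay just below them. In the EOS tumors of mice 19, 23 and 16, Myog was at 2.46%, 2.48% and 2.48%, and Myh8 at 0.413%, 1.24% and 1.60%, again above those 6. The EOS tumor of mouse 28 was an exception, with Myog at 0.184% and Myh8 at 0 counts. In the D14 IL-27 tumors, Myog was at 2.69% in mouse 6, with Myh8 at 0 counts, and at 1.18% in mouse 8, with Myh8 at 0.249%. Mouse 8 had a mature muscle score within the range of the 6 D14 tumors of mice given cabo, whose ratios reached 1.11% for Myog and 0.164% for Myh8. Why the ratios differed between tumors was not tested.

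Further genes of regeneration, of the neuromuscular junction and of wasting were set beside the members. Of 11 genes of regeneration and fusion, 7 had a positive slope on the score at an edgeR adjusted p under 0.05, among them Csrp3, a stretch-responsive protein of the Z-disc (slope 1.18, SE 0.09), and Myl4, the embryonic and atrial light chain (slope 0.67, SE 0.07). Mymk, which fuses myoblasts, had a slope of 0.54 (SE 0.18, adjusted p = 0.0844) and at most 54 counts. Of 15 genes of denervation and the junction, 7 had a positive slope, among them Scn4a, the adult sodium channel (1.07, SE 0.09) and Musk, the agrin receptor kinase (0.68, SE 0.14). Runx1, which denervated muscle raises, had a slope of -0.04 (SE 0.02, adjusted p = 0.315) and is also made by blood cells. Gadd45a, another such gene, had a slope of 0.02 (SE 0.03, adjusted p = 0.466). The median slope was 0.63 over the first list and 0.29 over the second, beside 0.0035 over all genes. Of 10 genes of satellite cells, 2 had a positive slope, Cdh15 (0.80, SE 0.11) and Itga7 (0.23, SE 0.03), and 1 a negative one, Megf10 (-0.35, SE 0.08). Of 10 partners of the myogenic factors, 3 had a positive slope, Rbm24 (0.93, SE 0.10), Mef2c (0.16, SE 0.03) and Eya4 (0.18, SE 0.05).

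Of 16 genes of muscle wasting, 1 had a positive and 1 a negative slope. The positive one was Fbxo40, a ubiquitin ligase confined to muscle (slope 0.97, SE 0.06, adjusted p = 9.1e-11), and the negative one Ddit4, an inhibitor of growth signaling (slope -0.11, SE 0.03, adjusted p = 0.0364). Foxo1 and Foxo3, which drive Trim63 and Fbxo32 in wasting muscle, had slopes of -0.01 (SE 0.02) and -0.0028 (SE 0.03), and their RNA is made by many cell types. In the D14 cabo comparison edgeR called 1 of the 15 wasting genes tested, Fbxo40 (log2 fold change 5.55, SE 0.52, adjusted p = 0.00331), 1 of 10 of regeneration and fusion, Csrp3 (6.17, SE 1.03, adjusted p = 0.0315), and 0 of 14 of denervation and the junction. Of 23 mature muscle genes tested there, 10 were called, with Myh4 at 6.07 (SE 0.85, adjusted p = 0.019) and Ckm at 5.14 (SE 0.95, adjusted p = 0.0431).

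Other tissue moved with muscle in the D14 cabo tumors. Of 6 genes of tendon and synovium, 4 rose by edgeR, Tnmd, Prg4, Thbs4 and Fmod, and the summed level of the list was 134.9 to 197.5 CPM in the cabo tumors and 11.1 to 33.1 CPM in the control tumors. Their part in the differences of the members was not tested. The summed level of 6 endothelial genes was 121.7 to 137.3 CPM in the cabo tumors and 169.9 to 273.7 CPM in the control tumors, and 3 of them fell, Kdr, Emcn and Tie1. Of the markers tested for prostate tumor epithelium (5), marrow myeloid cells (5), smooth muscle (6), Schwann cells (6), adipocytes (6) and heart muscle (3), 0 were called by edgeR. The summed levels of 2 of these lists did not overlap between the groups. Smooth muscle genes were at 455.1 to 476.9 CPM with cabo against 157.9 to 282.2 CPM, of which Des, desmin, which skeletal fibers also make, held 238.0 to 280.7 CPM against 1.40 to 50.1 CPM. Marrow myeloid genes were at 1.96 to 2.83 CPM against 4.11 to 4.97 CPM. With the mature muscle score as a covariate, 0 members were called in any of the 15 comparisons by edgeR, and the log2 differences on D14 with cabo were 1.27 (SE 0.79) for Myf6, 0.83 (SE 1.64) for Trim63 and 1.76 (SE 0.44) for Fbxo32. The score itself separated the D14 control from the cabo tumors, so this fit cannot tell the score and the treatment apart.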

How the data were processed

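RNA of 24 tumors was analysed, in the 10 groups that the labels give. The authors deposited raw counts per gene as whole numbers, in a single table. Per the authors, stranded poly(A) libraries were trimmed with cutadapt, mapped with HISAT2 and assembled with StringTie. The submitters' processing notes also name FastQC, DESeq2 and GRCh38, a human build, although the identifiers are those of mouse genes, and the program that made the counts is not given in the sources used here. Library totals ran from 63729005 to 83782258 counts. The reads carry no molecular identifiers, so intervals and the limit of 12 counts for a count of 0 cover counting error only.

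Genes were tested with edgeR 4.0.16 (R 4.3.3) by the quasi-likelihood F test after filterByExpr and TMM scaling, with Benjamini-Hochberg adjustment over all genes tested, and called at an adjusted p under 0.05. Fits held the pair of groups compared, or all EOS groups, all D14 groups (interaction) or all 8 intratibial groups (changes with time). The standard error is the log2 fold change divided by the square root of F. Log2 CPM used a prior count of 2. Lengths are those of the principal transcript in GENCODE M21. Correlations were tested by permutation and shares by exact permutation. Alternatives were DESeq2 1.42.0, RLE scaling, no filter, all 24 tumors in one fit, GC content and length removed, counts divided by 4, the muscle score as a covariate, and each tumor left out. The tests were checked on simulated data.

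The members and lists were chosen with earlier results of these data known. All 10 members are named, and from other lists called genes with the smallest p, at most 4 per list and comparison. Mymk, Musk, Chrng, Runx1, Gadd45a, Foxo1 and Foxo3, the slopes, the ratios to Acta1 and the values without mouse 20 were chosen after the data were seen.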

Additional observations from a re-analysis of the deposited data

How the results depend on the processing

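The counts of members called on D14 with cabo (3) became 1 without a filter on low counts (Fbxo32), 0 with all 24 tumors in one fit, 0 with the mature muscle score as a covariate, and 1 to 3 when a tumor was left out. It was 3 with DESeq2, with RLE size factors, with GC content and length removed and with counts divided by 4. The count of 0 elsewhere became, under DESeq2, 3 for SC IL-27, 3 for D14 IL-27+cabo, 3 for EOS cabo, 1 for EOS IL-27+cabo, 3 for IL-27+cabo between EOS and D14, and 1 for the change with time of IL-27, of cabo and of IL-27+cabo. For D14 IL-27+cabo it was 1 with all tumors in one fit and 1 with GC content and length removed. Leaving out a tumor gave 0 to 4 for SC IL-27, 0 to 2 for D14 IL-27+cabo, 0 to 1 for EOS cabo and 0 to 2 for cabo between EOS and D14, and 0 throughout for the other comparisons between groups. The cause of these shifts was not tested.

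Over all genes, the 352 calls for D14 cabo became 1483 with DESeq2, 101 without a filter, 39 with all tumors in one fit and 0 with the covariate, and in that order the 400 for cabo between EOS and D14 became 1749, 110, 47 and 34, and the 20 for control between EOS and D14 became 872, 0, 0 and 0. The 3880 for SC IL-27 became 6120 with DESeq2, 7076 with all tumors in one fit, 1668 with GC content and length removed and 36 with the covariate. The 12 for D14 IL-27+cabo became 483 with DESeq2, 92 with all tumors, 36 with GC content and length removed and 0 with the covariate. DESeq2 called 89 and 191 genes for the changes with time of cabo and of IL-27+cabo (17 each by edgeR), and where edgeR called 0 genes it called 2 for D14 IL-27, 23, 270 and 928 for EOS IL-27, cabo and IL-27+cabo, 105 and 326 for IL-27 and IL-27+cabo between EOS and D14, 4 for the interaction and 3 for the change of IL-27.

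The SC tumors share replicate numbers, but the differences between replicates 1 and 2 in the SC control and SC IL-27 groups correlated at r = 0.02 over 13888 genes, which does not show that the numbers pair them. With the replicate number as a block, 2 members were called (Myf6 and Trim63), and 1 with the block and GC content and length removed (Trim63). The fit without a block called 0 of 5 members and 20% of 19360 genes. The share of all genes called under the block is not given here, so these counts have no background.

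Single values changed sign with the mature muscle score as a covariate. On D14 with cabo they became -3.59 for Myod1, -2.53 for Myog, -3.94 for Myh3, -7.79 for Myh8 and -1.05 for Chrna1, on D14 with IL-27 -0.99 for Myf6, and in SC tumors -8.46 for Myf6, -17.2 for Trim63 and -2.29 for Fbxo32, none with an adjusted p under 0.05. Leaving out a tumor moved the D14 cabo value of Myh3 between -0.44 and 3.41 and of Chrna1 between -0.18 and 0.32, and the D14 IL-27 value of Myf6 between -0.92 and 5.54. The difference in developmental myosin share changed sign when a tumor was left out for SC IL-27 (-61.0 to 0.27), EOS IL-27 (-2.03 to 4.22), EOS cabo (-0.42 to 6.72), EOS IL-27+cabo (-1.82 to 7.12), IL-27 between EOS and D14 (-2.41 to 3.84) and IL-27+cabo between EOS and D14 (-0.20 to 8.73), and kept its sign for D14 cabo (-11.2 to -5.08) and D14 IL-27+cabo (-11.4 to -5.26). The correlations of 7 members with the score kept a permutation p under 0.05 with RLE scaling, a prior count of 0.5, a score of 5 genes, deviations from the group means and each tumor left out, and that of Chrna1 stayed above 0.05. The slopes of 3 members were called within EOS alone (8 tumors), 5 within D14 and 5 with the 8 groups as terms.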
